A study of Marchantia polymorpha and Klebsormidium nitens with 125 samples.

Results

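MpNPF31 (Mp7g01820) is a gene of the liverwort Marchantia polymorpha whose symbol places it in the NPF family of nitrate and peptide transporters. It was followed as 1 gene among the 19355 identifiers of the 3 M. polymorpha count tables, which hold 86 of the 125 libraries of the series. The gene was chosen by its lower counts in wild-type plants starved of nitrate or of sucrose. Those values, and all others that rest on the same wild-type starved and control libraries, are therefore given as a description with no test.

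RNA was sequenced from whole gemmalings, young plants grown from the asexual propagules of the liverwort. All of them grew for 7 days in full liquid Yamagami medium. The starved groups then spent 5 days in medium with 0% of the sucrose, 1% of the nitrate or 1% of the phosphate. Resupplied plants were returned to full medium for 6, 24 or 72 h after each of the starvations, and control plants stayed on full medium. The wild type was Tak-1, a standard laboratory strain. The mutants were labelled Mpcsd-2, Mperf20-21 and Mphd9-14, each a single knock-out line of the transcription factor gene MpCSD, MpERF20 or MpHD9. The first set held 39 Tak-1 libraries in 13 groups: 3 starved, 9 resupplied and 1 control. The second, the control-condition set, held 12 libraries of the 3 mutants and Tak-1 on full medium. The third, the mutant starvation set, held 35 libraries of the 3 mutants after each starvation and on full medium, with no Tak-1. Every group had 3 libraries except sucrose-starved Mperf20-21, which had 2. The day on which control plants were harvested was not given in the sources used here.

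NPF proteins are membrane transporters of plants, most of which are thought to move their substrate into the cell together with protons. In Arabidopsis, members of the family carry nitrate, short peptides, hormones or defence compounds, and the nitrate sensor and transporter CHL1 is one of them. What MpNPF31 carries was not given in the sources used here.

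The time course libraries totalled 19930892 to 38992957 counts each. Totals were 20161746 to 27511775 counts in the control-condition set, while the mutant starvation set had 16878159 to 28439838. MpNPF31 had 24 to 359 counts per library and passed the filter on low counts in all 3 tables. Levels are given as CPM, counts scaled to the library total after TMM correction of that total. The CPM of the mutated genes and of the cell type markers were scaled to the library total without that correction. The lowest MpNPF31 library had 1.28 CPM with the correction and 0.992 CPM without it. The transcripts of the mutated genes were still counted in their own mutants. MpCSD had 649 to 673 CPM in Mpcsd-2, against 798 to 859 CPM in Tak-1 of the same set. MpERF20 had 6.26 to 7.34 CPM in Mperf20-21, against 10.6 to 13.5 CPM in Tak-1. MpHD9 had 31.7 to 35.1 CPM in Mphd9-14, against 46.1 to 49.9 CPM in Tak-1. All 3 genes were also lower than in Tak-1 in the mutants of the other genes, so the counts do not check the knock-out labels, since they do not show a change of sequence. The 3 reproductive markers summed to at most 1.20 CPM in any library, and 1 of them, MpLC7, had 0 counts in every group of the mutant sets. MpRBCS, a photosynthetic gene of the green thallus, had at least 173 CPM in every library. Replicate 2 stood apart from its group over all genes in phosphate-starved Tak-1, in sucrose-resupplied Tak-1 at 6 and 72 h and in sucrose-starved Mpcsd-2, where it also held the lowest MpNPF31 level of all libraries. Without it, the log2 fold change of MpNPF31 was -0.78 for phosphate-starved Tak-1 against the control. It was 1.5 and 1.85 for sucrose-resupplied Tak-1 at 6 and 72 h against starved plants, and -1.47 for sucrose-starved Mpcsd-2 against full medium (adjusted p = 0.00378). Other libraries also stood apart, among them replicate 3 of phosphate-resupplied Tak-1 at 24 h and of nitrate-starved Mpcsd-2. Replicate 1 of nitrate-resupplied Tak-1 at 72 h was another.

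MpNPF31 was lowest in sucrose-starved Tak-1 plants, then in nitrate-starved and then in phosphate-starved plants. Sucrose-starved libraries had 2.88, 3.67 and 3.41 CPM, against 10.9, 12.5 and 8.91 CPM in the control libraries. Nitrate-starved libraries had 3.98, 5.00 and 5.37 CPM, and phosphate-starved libraries had 6.29, 8.05 and 6.28 CPM. The 3 starved groups overlapped neither with each other nor with the control group. Their means were 3.32 ± 0.403 CPM without sucrose, 4.78 ± 0.717 CPM with little nitrate and 6.87 ± 1.02 CPM with little phosphate, against 10.8 ± 1.81 CPM in the control (SD, n = 3 each). These means stood at 30.8%, 44.4% and 63.7% of the control mean. The log2 fold changes against the control were -1.69 ± 0.16 for sucrose, -1.18 ± 0.15 for nitrate and -0.66 ± 0.15 for phosphate starvation (± SE). Sucrose starvation differed from nitrate starvation by -0.52 ± 0.16 and from phosphate starvation by -1.04 ± 0.16. By the same fits 17% of all 13504 genes tested were called lower under sucrose, 15% under nitrate and 12.3% under phosphate starvation. The markers listed for oil body cells, storage cells peculiar to liverworts, were MpSYP12B, MpERF13 and all genes with a TPS symbol. The TPS genes were matched by name only, and whether each marks these cells was not tested. Of the 9 listed genes 7 were detected, with MpTPS2 and MpTPS7 at 0. The sum of the list ran from 38.3 to 41.2 CPM in the sucrose-starved libraries and from 51.8 to 52.5 CPM in the control. That sum was 45.6 to 59.7 CPM with little nitrate and 61.7 to 68.5 CPM with little phosphate. MpSYP12B of that list had overlapping ranges, 3.70 to 4.38 CPM without sucrose and 4.30 to 5.25 CPM in the control. MpRBCS had 435 to 517 CPM without sucrose, 377 to 434 CPM with little nitrate and 349 to 457 CPM with little phosphate, against 495 to 510.4 CPM in the control. The gemma genes MpGCAM1 and MpKAR, both detected, summed to 14.5 to 21.6, 20.4 to 23.9 and 21.5 to 25.7 CPM in the same order, against 24.1 to 28.1 CPM. Their part in the level of MpNPF31 was not tested. In whole plants, fewer cells that express a gene and less of its RNA per cell cannot be told apart.

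**Figure D1:**
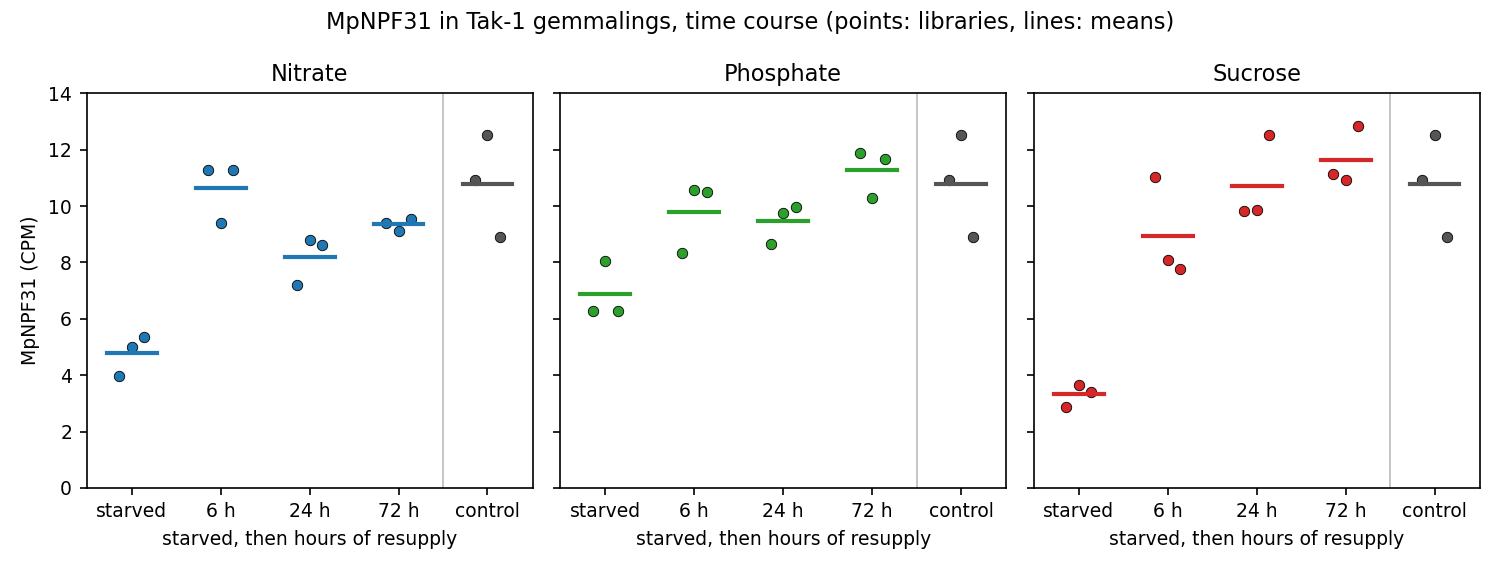
MpNPF31 in Tak-1, in CPM on the vertical axis, for each starvation, the 3 times of resupply and the shared control group; points are libraries and lines are group means (n = 3). The starved libraries reach at most 3.67 CPM for sucrose, 5.37 CPM for nitrate and 8.05 CPM for phosphate, below the lowest control library at 8.91 CPM.

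After full medium was given back, MpNPF31 was above the starved level at 6 h for each nutrient. After nitrate starvation the libraries had 11.3, 9.39 and 11.3 CPM at 6 h, 7.20, 8.80 and 8.64 CPM at 24 h, and 9.40, 9.11 and 9.55 CPM at 72 h. After phosphate starvation they had 8.32, 10.6 and 10.5 CPM at 6 h, 8.67, 9.76 and 9.99 CPM at 24 h, and 11.9, 10.3 and 11.7 CPM at 72 h. After sucrose starvation they had 11, 8.07 and 7.77 CPM at 6 h, 9.82, 9.86 and 12.5 CPM at 24 h, and 11.1, 10.9 and 12.8 CPM at 72 h. Every resupplied library was higher than all libraries of its own starved group. Against the starved group, the log2 fold changes at 6, 24 and 72 h were 1.43 ± 0.16, 1.69 ± 0.16 and 1.80 ± 0.16 for sucrose. They were 1.16 ± 0.15, 0.79 ± 0.15 and 0.97 ± 0.15 for nitrate, and 0.52 ± 0.15, 0.47 ± 0.15 and 0.72 ± 0.15 for phosphate. Markers moved too at 6 h: after sucrose starvation MpRBCS had 173 to 259 CPM, against 435 to 517 CPM in starved plants, the gemma genes summed to 31.9 to 41.5 CPM, against 14.5 to 21.6 CPM, and the oil body markers to 54.7 to 64.2 CPM, against 38.3 to 41.2 CPM. MpSYP12B of the oil body list went the other way, with 3.02 to 3.57 CPM, against 3.70 to 4.38 CPM in starved plants. Their part in the level of MpNPF31 was not tested. At 72 h the differences from the control were -0.20 ± 0.14 after nitrate, 0.07 ± 0.14 after phosphate and 0.11 ± 0.14 after sucrose starvation, and each of these groups overlapped with the control. In the order of the 13 group means, the starved groups took the last 3 places, and from sucrose at 72 h of resupply (11.6 ± 1.05 CPM) down to phosphate starvation each group overlapped with the next lower one. Phosphate, nitrate and sucrose starvation, in that order, were each separated from the next.

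Differences within the resupply phase were small, and these were tested because their fold changes rest on neither starved nor control libraries. Those libraries do enter the estimate of the spread, which is shared by all groups of the table. Of 9 comparisons between times of the same nutrient 1 was called, and of 9 comparisons between nutrients at the same time 1 was called, by edgeR's quasi-likelihood test at an adjusted p under 0.05. After sucrose starvation the level at 72 h was above that at 6 h, with a log2 fold change of 0.37 ± 0.14 (adjusted p = 0.0287) and overlapping groups; 27.9% of all genes were called higher in this comparison. It was 0.30 without replicate 2 of the 6 h group, 0.28 without its replicate 3 and 0.30 without replicate 3 of the 72 h group (adjusted p = 0.122, 0.144 and 0.125). Fitted on only the groups compared it was 0.38 and was not called (adjusted p = 0.087). At 24 h the sucrose group was above the nitrate group by 0.39 ± 0.14 (adjusted p = 0.0482), with 14% of all genes called higher. This call was lost when any 1 of its 6 libraries was left out, with values between 0.24 and 0.43 (adjusted p = 0.0616 to 0.299). After nitrate starvation the 24 h group differed from the 6 h group by -0.38 ± 0.14 (log2 fold change, adjusted p = 0.0509) without overlap, and this became a call without replicate 2 of the 6 h group (-0.46, adjusted p = 0.0329). The other uncalled differences lay between -0.27 and 0.31. Over all genes the share called ranged from 1.03% to 54.9% among the comparisons of times and from 0% to 41.1% among those of nutrients.

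Without sucrose MpNPF31 was also lower in each of the 3 mutants, in libraries that played no part in its choice. Sucrose-starved Mpcsd-2 libraries had 1.90, 1.28 and 2.24 CPM, against 5.04, 7.88 and 4.39 CPM on full medium. Sucrose-starved Mperf20-21 libraries had 3.14 and 2.33 CPM, against 8.53, 5.92 and 7.43 CPM on full medium. Sucrose-starved Mphd9-14 libraries had 3.29, 1.75 and 2.80 CPM, against 8.54, 7.76 and 6.02 CPM on full medium. In each mutant the starved libraries lay below all full-medium libraries. MpNPF31 fell by 1.66 ± 0.31 in Mpcsd-2 (adjusted p = 0.000225), fell by 1.41 ± 0.33 in Mperf20-21 (adjusted p = 0.00317) and fell by 1.49 ± 0.29 in Mphd9-14 (adjusted p = 0.000311) on the log2 scale. The starved means were 31.3%, 37.5% and 35.1% of those on full medium. Shares of 10.8%, 6.88% and 9.83% of the 13162 genes tested were called lower in these comparisons, and by fold change MpNPF31 stood 155th, 283rd and 162nd from the lowest. Without replicate 2 of the sucrose-starved Mperf20-21 group, which leaves 1 library assumed to vary like the other groups, its log2 fold change was -1.22 (adjusted p = 0.0702). The calls in the other mutants held without any 1 library. The summed oil body markers were 20.2 to 29.8 CPM in starved and 34.9 to 38.8 CPM in full-medium Mpcsd-2, 33.7 to 43.4 CPM and 46.3 to 51.8 CPM in Mperf20-21, and 34.3 to 39.7 CPM and 49.4 to 58.4 CPM in Mphd9-14. Of those 9 genes 7 were detected, with MpTPS2 and MpTPS7 at 0. The list members MpSYP12B and MpERF13 were not called in any of these comparisons. Only MpTPS1, in Mpcsd-2 and Mperf20-21 (-0.55 and -0.49), and MpTPS3, in Mpcsd-2 and Mphd9-14 (-0.61 and -0.85), were called, all lower. MpRBCS went the other way and was called higher in Mpcsd-2 (0.32 ± 0.09, adjusted p = 0.0122) and Mphd9-14 (0.31 ± 0.09, adjusted p = 0.0187) but not in Mperf20-21 (0.15 ± 0.10), and neither gemma gene was called in any mutant. The part of these cell types in the result was not tested.

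**Figure D2:**
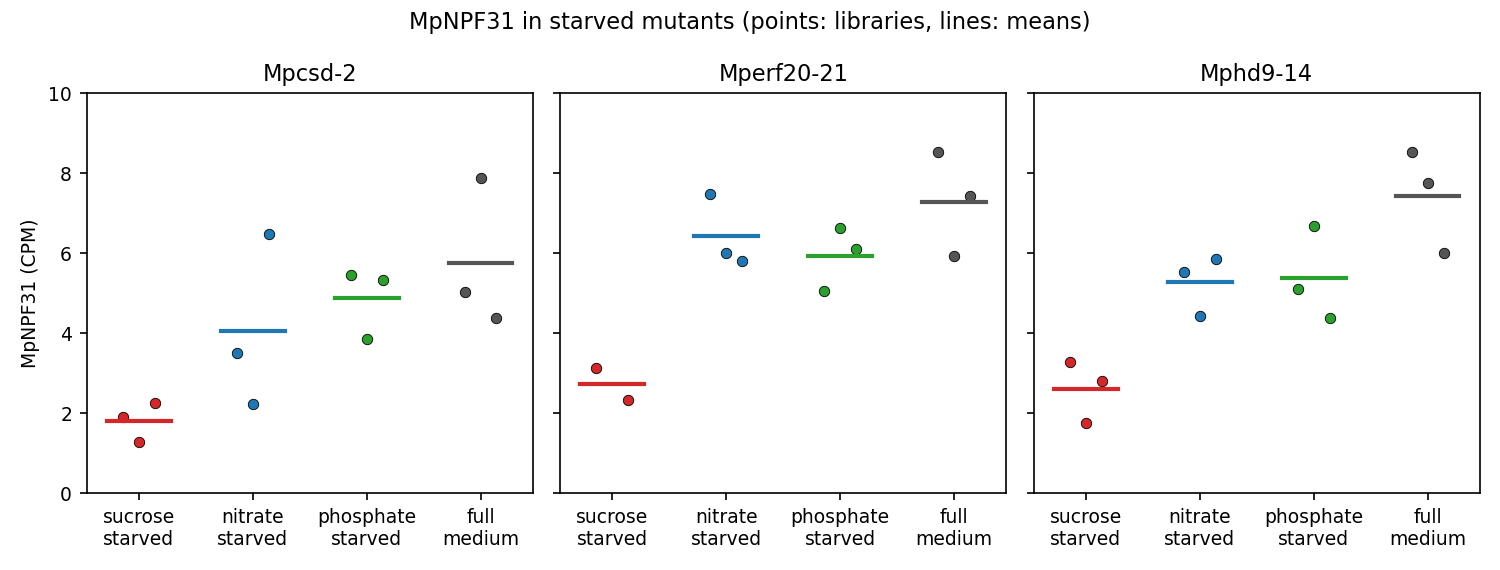
MpNPF31 in the mutant starvation set, in CPM on the vertical axis, by medium and mutant; points are libraries and lines are group means (n = 3, and 2 for sucrose-starved Mperf20-21). Sucrose-starved libraries reach at most 3.29 CPM and full-medium libraries start at 4.39 CPM.

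Nitrate and phosphate starvation gave no call for MpNPF31 in any mutant. Nitrate-starved libraries had 3.5, 2.23 and 6.48 CPM in Mpcsd-2, 7.49, 6.00 and 5.81 CPM in Mperf20-21, and 5.54, 4.43 and 5.86 CPM in Mphd9-14. Phosphate-starved libraries had 5.45, 3.87 and 5.33 CPM in Mpcsd-2, 5.07, 6.64 and 6.10 CPM in Mperf20-21, and 5.10, 6.68 and 4.37 CPM in Mphd9-14. Only the nitrate-starved Mphd9-14 libraries did not overlap with their full-medium group. The log2 fold changes with nitrate starvation were -0.51 (95% interval -1.07 to 0.06) in Mpcsd-2, -0.18 (-0.72 to 0.36) in Mperf20-21 and -0.49 (-1.04 to 0.06) in Mphd9-14. Those with phosphate starvation were -0.24 (-0.80 to 0.31), -0.30 (-0.84 to 0.24) and -0.46 (-1.01 to 0.09). All 6 were negative, and their adjusted p ran from 0.602 to 0.866. Few other genes were called in these comparisons: 1.89%, 3.19% and 1.19% for nitrate and 7.7%, 4.52% and 2.3% for phosphate in the same order of mutants. Without replicate 3 of the nitrate-starved Mpcsd-2 group, the library with 6.48 CPM, the log2 fold change there was -1.0 and was called (adjusted p = 0.0387).

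**Figure D3:**
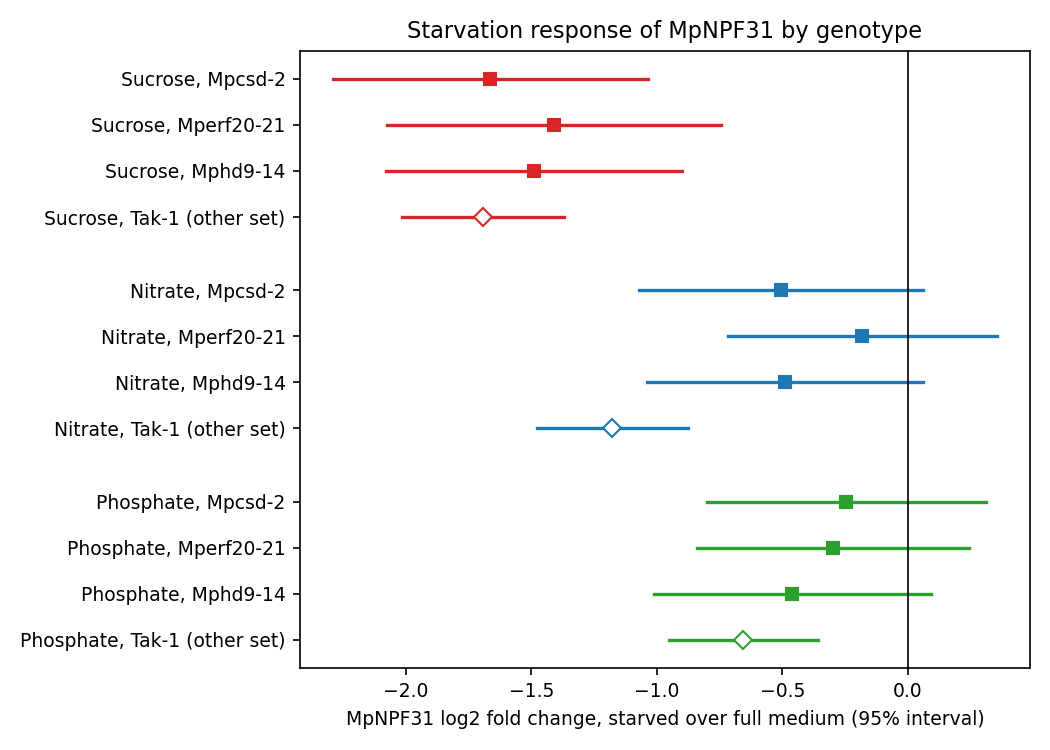
Log2 fold change of MpNPF31, starved over full medium, with its 95% interval on the horizontal axis, for each starvation and genotype; filled squares are mutants and open diamonds are Tak-1, whose nitrate and sucrose values chose the gene and which was sequenced in another set. The 3 sucrose intervals of the mutants lie below -0.74, and all nitrate and phosphate intervals of the mutants include 0.

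Within each mutant, MpNPF31 was lower without sucrose than with little nitrate or little phosphate. All 6 of these comparisons were called, with log2 fold changes of -1.16 ± 0.31 against nitrate and -1.42 ± 0.31 against phosphate starvation in Mpcsd-2 (adjusted p = 0.00865 and 0.000721). They were -1.23 ± 0.33 and -1.11 ± 0.33 in Mperf20-21 (adjusted p = 0.00571 and 0.0137), and -1.0 ± 0.29 and -1.03 ± 0.29 in Mphd9-14 (adjusted p = 0.0116 and 0.0096). The starved groups did not overlap in 5 of the 6, the exception being nitrate-starved Mpcsd-2 with 1 library at 2.23 CPM. Over all genes 9.51% and 15% were called lower in Mpcsd-2, 12.6% and 12.2% in Mperf20-21, and 12.6% and 13.1% in Mphd9-14. Leaving out 1 library ended 5 of these calls. The value against nitrate in Mpcsd-2 was -0.66 without nitrate replicate 3 and -0.96 without sucrose replicate 2 (adjusted p = 0.125 and 0.0697). In Mperf20-21 both values were lost without sucrose replicate 2 (-1.04 and -0.92, adjusted p = 0.0944 and 0.154), as were both in Mphd9-14 without its sucrose replicate 2 (-0.79 and -0.82, adjusted p = 0.0834 and 0.0715). The second was also lost without phosphate replicate 2 of Mphd9-14 (-0.84, adjusted p = 0.0707). Nitrate and phosphate starvation were not told apart in any mutant, with differences of -0.26 (95% interval -0.83 to 0.31), 0.12 (-0.43 to 0.67) and -0.03 (-0.59 to 0.53), where 5.06%, 1.79% and 1.13% of all genes were called.

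The size of the starvation response of MpNPF31 was compared between mutants in 9 contrasts, and 0 were called by edgeR's quasi-likelihood test, also 0 at an unadjusted p under 0.05. For sucrose the responses differed by -0.25 (95% interval -1.16 to 0.66) between Mpcsd-2 and Mperf20-21, by -0.17 (-1.03 to 0.69) between Mpcsd-2 and Mphd9-14 and by 0.08 (-0.80 to 0.97) between Mperf20-21 and Mphd9-14. The nitrate and phosphate contrasts lay between -0.33 and 0.31. The 9 intervals reached from -1.16 to 1.08, and differences between mutants within the interval of their own contrast were not excluded. Of all genes 0%, 0.0228% and 0% were called in the nitrate contrasts, 0.0836%, 0.304% and 0.0076% in the phosphate contrasts and 0.0304%, 0.152% and 0.0152% in the sucrose contrasts. The response of Tak-1 was not compared with that of a mutant by a test, because the Tak-1 values chose the gene and came from another set.

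On full medium MpNPF31 was lower in Mpcsd-2 than in Tak-1 in the control-condition set. Mpcsd-2 libraries had 2.85, 2.97 and 2.81 CPM, Mperf20-21 libraries 8.15, 9.80 and 8.02 CPM and Mphd9-14 libraries 6.96, 5.84 and 4.28 CPM, against 7.22, 7.0 and 6.20 CPM in Tak-1 libraries. The Mpcsd-2 libraries lay below all others. MpNPF31 fell by 1.24 ± 0.18 on the log2 scale in Mpcsd-2 against Tak-1 (adjusted p = 3.94e-06), to 2.88 ± 0.0835 CPM, against 6.81 ± 0.535 CPM in Tak-1 (SD, n = 3 each), and the call held without any 1 library. In this comparison 28.4% of the 12565 genes tested were called lower. In Mperf20-21 the log2 fold change was 0.35 (95% interval 0.01 to 0.68, adjusted p = 0.0912) and in Mphd9-14 it was -0.26 (-0.61 to 0.09, adjusted p = 0.224), neither of them called although Mperf20-21 and Tak-1 libraries did not overlap, while 41.4% and 43.6% of all genes were called in either direction. Between mutants, Mpcsd-2 differed from Mperf20-21 by -1.59 ± 0.18 (adjusted p = 1.35e-07) and from Mphd9-14 by -0.98 ± 0.18 (adjusted p = 0.000129), with 25.9% and 22.5% of all genes called lower. Mperf20-21 was 0.61 ± 0.16 above Mphd9-14 (adjusted p = 0.0214), with 3.37% of all genes called higher. That call was lost without Mperf20-21 replicate 2 (0.51, adjusted p = 0.138) or Mphd9-14 replicate 3 (0.44, adjusted p = 0.157).

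Cell type markers moved in the same comparison. The summed oil body markers were 74.9 to 79.2 CPM in Mpcsd-2 and 52.0 to 54.1 CPM in Tak-1, with 7 of 9 genes detected and MpTPS2 and MpTPS7 at 0. Single members of that list went both ways. MpSYP12B, a membrane fusion protein of oil body cells, fell by 2.01 ± 0.25 (adjusted p = 3.43e-07). MpERF13, a regulator of oil body formation, fell by 1.66 ± 0.27 (adjusted p = 2.34e-05). The TPS genes were split: MpTPS6 was called lower (-2.54 ± 0.30), MpTPS1 was called higher (0.49 ± 0.10) and MpTPS5 rose by 2.77 ± 0.14 (adjusted p = 1.21e-11). MpTPS3 and MpTPS4 were not called. The photosynthetic gene MpRBCS had 401 to 426 CPM in Mpcsd-2 and 537 to 567 CPM in Tak-1. The pair of gemma genes MpGCAM1 and MpKAR, both detected, summed to 17.9 to 20.4 CPM in Mpcsd-2 and 28.6 to 32.2 CPM in Tak-1, MpKAR being lower (-0.76 ± 0.09) and MpGCAM1 higher (1.10 ± 0.27). The part of these cell types in the level of MpNPF31 was not tested.

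**Figure D4:**
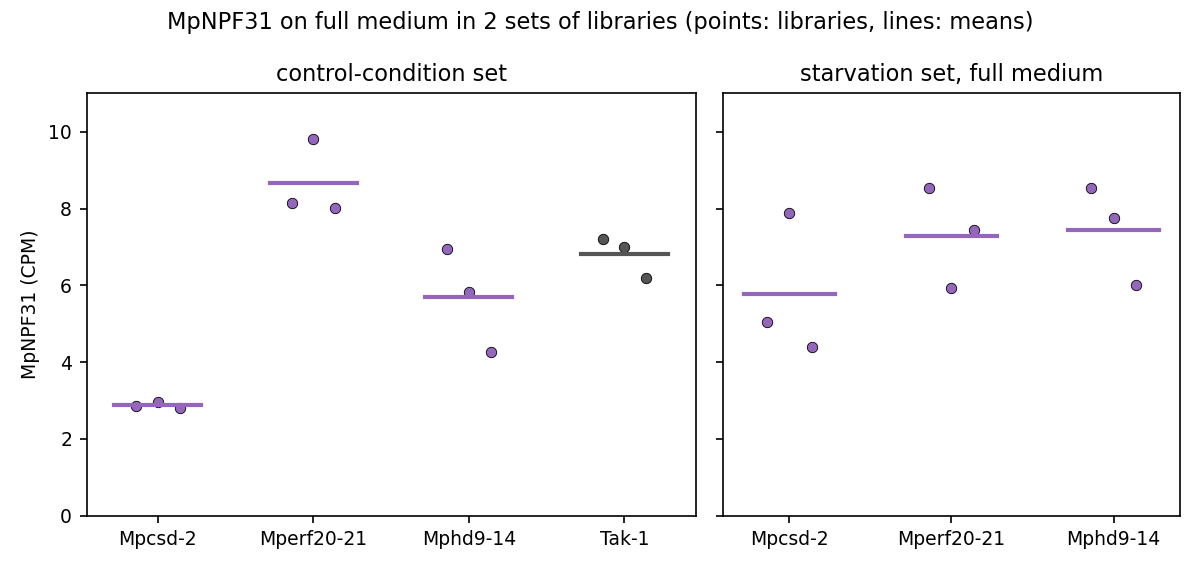
MpNPF31 on full medium, in CPM on the vertical axis, in the control-condition set (left) and the mutant starvation set (right); points are libraries and lines are group means (n = 3). Mpcsd-2 libraries reach at most 2.97 CPM in the control-condition set, against 4.39 to 7.88 CPM in the mutant starvation set.

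The low level of MpNPF31 in Mpcsd-2 was not seen to the same extent in the mutant starvation set. The sets were scaled separately, so their levels are set side by side only as a description. In the starvation set the 3 mutants on full medium overlapped, and Mpcsd-2 differed from Mperf20-21 by -0.34 (95% interval -0.88 to 0.20) and from Mphd9-14 by -0.37 (-0.91 to 0.18). Mperf20-21 differed from Mphd9-14 by -0.03 (-0.56 to 0.51). None of these 3 was called, while 25.8%, 25% and 0.653% of all genes were. A joint fit of both mutant sets, added after the data were seen, tested whether a difference between mutants depended on the set. For Mpcsd-2 against Mperf20-21 the log2 fold change in the control-condition set minus that in the starvation set was -1.25 ± 0.36 (adjusted p = 0.00689), and 27% of 13400 genes were called in this contrast. Without replicate 2 of full-medium Mpcsd-2 in the starvation set, the library with 7.88 CPM, it was -0.95 (adjusted p = 0.052). For Mpcsd-2 against Mphd9-14 it was -0.62 ± 0.36 (adjusted p = 0.242) and for Mperf20-21 against Mphd9-14 it was 0.63 ± 0.34 (adjusted p = 0.552). The starvation set holds no Tak-1 library, so the difference of Mpcsd-2 from the wild type has no second set.

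The NPF family has 35 genes with a symbol in the reference table of names, of which 22 passed the filter in the mutant starvation set and 21 in the other 2 sets. In sucrose-starved mutants 7 of the 22 fell and 0 rose in Mpcsd-2, 5 fell and 1 rose in Mperf20-21, and 10 fell and 0 rose in Mphd9-14, MpNPF31 included. Among all genes 10.8%, 6.88% and 9.83% were called lower and 15.1%, 8.31% and 12.3% higher in the same order. Their median log2 fold changes were -0.21, -0.43 and -0.46, where the medians of all genes were 0.0068, 0 and -0.013. Besides MpNPF31, the genes called lower in all 3 mutants were MpNPF5, MpNPF21 and MpNPF22. Of all 13162 genes tested 432, or 3.28%, were called lower in all 3. MpNPF5 fell by 1.64 ± 0.35 in Mpcsd-2, fell by 1.52 ± 0.38 in Mperf20-21 and fell by 1.21 ± 0.38 in Mphd9-14 (adjusted p = 0.000969, 0.0062 and 0.0218). Its level was 0.560 ± 0.120 CPM in sucrose-starved and 1.77 ± 0.504 CPM in full-medium Mpcsd-2, so few reads stand behind it. MpNPF22 fell by 0.52 ± 0.12, 0.65 ± 0.14 and 0.87 ± 0.12 in the same order, and MpNPF21 fell by 0.47 ± 0.16, 0.62 ± 0.18 and 0.84 ± 0.16. Called lower in some of the mutants were also MpNPF4, MpNPF6, MpNPF19, MpNPF23, MpNPF29, MpNPF33 and MpNPF34. MpNPF4 fell by 0.92 ± 0.16 in Mpcsd-2 and fell by 0.83 ± 0.18 in Mperf20-21, and MpNPF34 fell by 1.35 ± 0.49 in Mphd9-14. The only member that rose in any of them was MpNPF14, in Mperf20-21 (0.47 ± 0.15, adjusted p = 0.0278). MpNPF21, MpNPF22 and MpNPF23 have identifiers close to each other, as do MpNPF5 and MpNPF6, and how the authors' counting treated reads shared by near copies was not given.

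**Figure D5:**
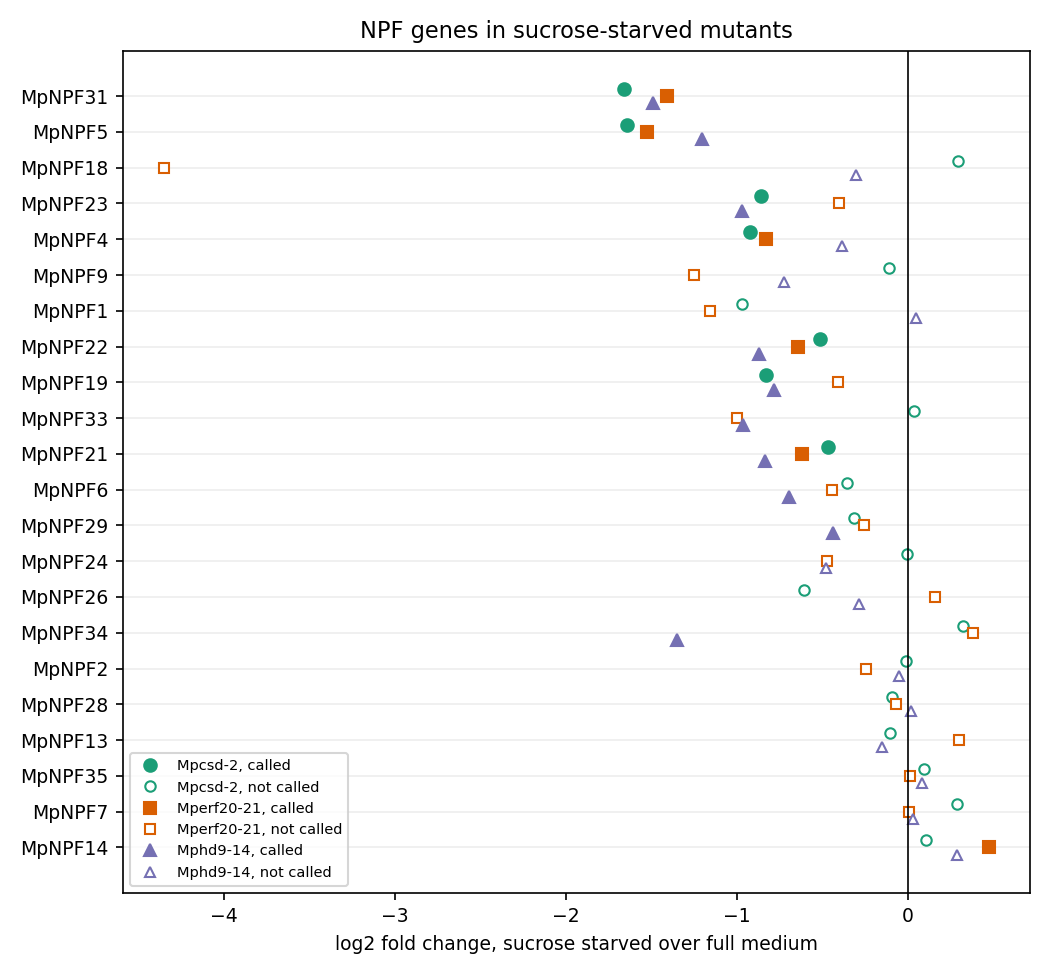
Log2 fold change, sucrose starved over full medium, of the 22 measured NPF genes in each mutant, ordered by their mean; filled symbols passed an adjusted p of 0.05 and open symbols did not. MpNPF31 lies between -1.66 and -1.41, MpNPF5 between -1.64 and -1.21, and MpNPF14 holds the only filled symbol above 0; the open symbol of MpNPF18 at -4.35 is a fitted value for a gene at 0 counts in both sucrose-starved Mperf20-21 libraries.

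Members of the family called lower without sucrose than with little nitrate and with little phosphate, in all 3 mutants, were MpNPF4, MpNPF5, MpNPF19, MpNPF22, MpNPF23 and MpNPF31, 6 of 22. Of all 13162 genes tested 493, or 3.75%, were called lower in all 6 comparisons. Over these 6 comparisons MpNPF31 ranged from -1.42 to -1.0, MpNPF5 from -1.68 to -1.06, MpNPF23 from -1.41 to -0.96, MpNPF4 from -1.22 to -0.50, MpNPF22 from -1.04 to -0.42 and MpNPF19 from -0.87 to -0.44.

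On full medium, 10 of the 21 measured NPF genes were lower and 5 higher in Mpcsd-2 than in Tak-1, with a median of -0.28 beside -0.02 for all genes. Over all genes 28.4% were called lower and 28.2% higher, so the share of members called higher did not exceed that of all genes. The lowest values were those of MpNPF7, which fell by 3.60 ± 0.31 to 0.376 ± 0.161 CPM, against 4.69 ± 0.899 CPM in Tak-1, MpNPF26 (-2.09 ± 0.27) and MpNPF2 (-1.31 ± 0.20). MpNPF31 came next at -1.24. The highest was MpNPF33, which rose by 1.18 ± 0.10 to 44.7 ± 3.45 CPM, against 19.6 ± 2.85 CPM in Tak-1. In Mperf20-21 7 members rose and 0 fell, and in Mphd9-14 3 rose and 3 fell. Over all genes 20.9% were called higher and 20.4% lower in Mperf20-21, and 21.6% higher and 22.1% lower in Mphd9-14, so the counts in Mphd9-14 were below those shares. MpNPF14 rose in both, by 1.38 ± 0.10 and 1.74 ± 0.10 (adjusted p = 1.00e-09 and 2.75e-11), to 51.2 ± 1.31 and 65.7 ± 0.845 CPM, against 19.6 ± 1.84 CPM in Tak-1.

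Few other genes listed for nitrogen transport, assimilation and signalling were measured. Of 17 ammonium transporter symbols (AMT, carriers of ammonium across membranes) 4 passed the filter. In Mpcsd-2 against Tak-1 3 rose and 0 fell: MpAMT2.3 by 3.37 ± 0.30 to 23.4 ± 0.452 CPM, against 2.26 ± 0.411 CPM in Tak-1, MpAMT1.2 by 1.56 ± 0.09 and MpAMT1.4 by 1.17 ± 0.13. In Mperf20-21 4 rose and in Mphd9-14 3 rose, with 0 fallen in both, where 28.2%, 20.9% and 21.6% of all genes were called higher in the 3 mutants in that order. In the sucrose-starved mutants MpAMT1.2 was the only one that rose, by 0.39 ± 0.09 in Mpcsd-2, 0.49 ± 0.10 in Mperf20-21 and 0.41 ± 0.09 in Mphd9-14, and MpAMT1.4 fell in Mphd9-14 by 0.77 ± 0.28 (adjusted p = 0.0485). MpNLA, named after an Arabidopsis ubiquitin ligase needed for adaptation to low nitrogen, rose by 2.20 ± 0.28 in Mpcsd-2, 1.29 ± 0.28 in Mperf20-21 and 1.55 ± 0.28 in Mphd9-14 against Tak-1 and was not called in any sucrose-starved mutant. MpNIN, the other signalling symbol, was called only in Mphd9-14 against Tak-1 (0.16 ± 0.05). MpNRP, the only symbol matched for nitrate assimilation and only by its letters, fell by 0.28 ± 0.06, 0.32 ± 0.06 and 0.39 ± 0.06 in the 3 mutants against Tak-1. MpCLC1 was the only 1 measured of 3 symbols matched for chloride and nitrate channels, and it too was matched only by its letters. It fell by 0.17 ± 0.06 in sucrose-starved Mpcsd-2 and by 0.22 ± 0.07 in Mperf20-21, and it was not called in any mutant on full medium.

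The genes listed beside MpNPF31 in the reference table of assembly MpTak2_v7.1 were tested in the same comparisons, and none of the 4 fell in all 3 sucrose-starved mutants. They were MpC3H27 (Mp7g01800, named for zinc fingers of the CCCH type) and Mp7g01810 on one side and MpOMT21 (Mp7g01830, named for O-methyltransferases) and Mp7g01840 on the other. In sucrose-starved Mpcsd-2, Mperf20-21 and Mphd9-14, MpC3H27 had log2 fold changes of 0.05, 0.12 and 0.0083, none of them called. Mp7g01810 rose by 0.27 ± 0.07 in Mpcsd-2 and by 0.25 ± 0.08 in Mperf20-21 and was not called in Mphd9-14 (0.10). MpOMT21 fell by 0.39 ± 0.09 in Mperf20-21 and fell by 0.35 ± 0.08 in Mphd9-14, and was not called in Mpcsd-2 (-0.19, adjusted p = 0.064). In Tak-1, MpOMT21 was called lower in all 3 starvations against the control, with log2 fold changes of -0.50 ± 0.10 without sucrose, -0.51 ± 0.10 with little nitrate and -0.47 ± 0.10 with little phosphate, and higher in all 9 resupplied groups against their starved group (0.32 to 0.96). Other neighbours did not follow it. Mp7g01810 was called higher without sucrose (0.26 ± 0.07) and lower at 6, 24 and 72 h of sucrose resupply (-0.66, -0.32 and -0.32). It was not called with little nitrate or little phosphate. MpC3H27 was called higher with little phosphate (0.18 ± 0.06) and lower at 6, 24 and 72 h of phosphate resupply (-0.20, -0.17 and -0.24). All these comparisons are made on the libraries that chose MpNPF31, whose values in them go in the direction of MpOMT21. Mp7g01840, with 1 to 24 counts per library in that set, was called in none. In Mpcsd-2 on full medium against Tak-1, MpOMT21 rose by 0.31 ± 0.06 (adjusted p = 7.40e-05) and the other 3 were not called.

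Likeness of pattern was measured as Pearson's r with MpNPF31 over the 13 group means of log2 CPM of the Tak-1 time course, among 12345 genes that passed the filter in all 3 tables. It is a description: the points share libraries and MpNPF31 itself spans 1.79 on the log2 scale. The 5 highest were Mp3g10550 (r = 0.961), Mp3g12760 (0.939), MpCHIL2 (0.923), Mp1g25760 (0.922) and Mp1g22200 (0.922). Over the 16 group means of the mutant sets, centred within each set, their r was 0.259, 0.547, 0.64, 0.512 and 0.865. A high r does not mean a change of like size, as Mp3g10550 spanned only 0.377 on the log2 scale in the time course. The 5 highest with a symbol were MpCHIL2, named after chalcone isomerase-like proteins of flavonoid synthesis, the histone gene MpH4g (0.899), the D-type cyclin MpCYCD_1 (0.891), the ABC transporter MpABCC7 (0.887) and the mitotic kinase MpCDKB (0.881). Over the mutant sets MpCYCD_1 had r = 0.941, MpCDKB 0.892, MpABCC7 0.674, MpCHIL2 0.64 and MpH4g 0.583. MpCYCD_1 had 11.4 CPM in sucrose-starved, 19.2 CPM in nitrate-starved and 17.5 CPM in phosphate-starved Tak-1, against 25.1 CPM in the control. Within the NPF family MpNPF6 was closest by r in the time course (r = 0.849, 53rd of all genes, and 0.865 over the mutant sets). By Spearman's rho MpNPF6 came 1090th (0.527), behind MpNPF1 (0.626), MpNPF24 (0.599) and MpNPF2 (0.560). MpNPF19 had r = 0.0401 in the time course and 0.939 over the mutant sets.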

How the data were processed

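The M. polymorpha tables hold raw counts per gene, as the authors deposited them. Per the submitters' processing notes the tools were STAR 2.7 and DESeq2; which build, annotation, counter and strandedness option were used was not given in the sources used here. Libraries were directional and made from poly(A) RNA, per the labels' protocols. Of the counts used, each of the 86 columns matched 1 sample by name.

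Each table was fitted on its own with edgeR 4.0.16 under R 4.3.3: TMM scaling, the default filter on low counts, and the quasi-likelihood test with 1 mean per group over all groups of the table. p-values were adjusted by Benjamini-Hochberg over all genes of the table, and a call is an adjusted p under 0.05. Intervals are 95% intervals of the log2 fold change. Log2 CPM used a prior count of 2. The fits were also run on simulated counts, with the same spread for all genes and known changes in a small share of them. That run does not cover comparisons in which a large share of genes changes. Library totals differ by less than 3-fold, and the low counts of MpNPF31 in sucrose-starved mutants limit the precision there. Whether replicates of a group were grown as separate cultures is not stated in the labels. The p-values therefore reflect no more than the variation among these libraries, part or all of it possibly technical.

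MpNPF31 and the gene lists were chosen with earlier results of these data known. Besides MpNPF31, genes named are all called members of a list or its extremes, the 2 nearest identifiers on each side, and the 5 genes most alike in pattern, in all and among those with a symbol. Symbols came from the RefSeq table of assembly MpTak2_v7.1, which matched 17384 of 19355 identifiers and gave 3091 a symbol; whether the authors used that build is not known, so no coordinates or sequences are given. Alternatives were other scalings (DESeq2 1.42.0 among them), no filter, only the groups compared, a replicate block, and leaving out each library. The joint fit of the mutant sets was added after seeing the data. The lists of NRT2 and OPT transporters matched no symbol. The Klebsormidium nitens table was not used here.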

Additional observations from a re-analysis of the deposited data

Results flagged for a closer look

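The difference of MpNPF31 between Mpcsd-2 and Mperf20-21 on full medium differed between the sets of libraries. In the joint fit the log2 fold change of the control-condition set minus that of the mutant starvation set was -1.25 ± 0.36 (95% interval -1.97 to -0.53, edgeR's quasi-likelihood test, adjusted p = 0.00689). In this contrast 27% of 13400 genes were called. Without replicate 2 of full-medium Mpcsd-2 in the starvation set the value was -0.95 and was not called (adjusted p = 0.052). The same contrast of Mpcsd-2 with Mphd9-14 was not called either (-0.62 ± 0.36, adjusted p = 0.242). The sets were scaled separately for their levels, so the CPM values that follow are a description. All 3 Mpcsd-2 libraries of the control-condition set lay below all 3 of the starvation set. The oil body markers summed to 74.9 to 79.2 CPM in Mpcsd-2 of the control-condition set and to 34.9 to 38.8 CPM in Mpcsd-2 of the starvation set, and in Mperf20-21 to 72.4 to 82.3 CPM and 46.3 to 51.8 CPM. MpSYP12B of that list went the other way in Mpcsd-2, with 0.822 to 1.01 CPM in the control-condition and 1.77 to 2.77 CPM in the starvation set. In Mperf20-21 its ranges overlapped (3.31 to 4.58 CPM and 4.04 to 5.78 CPM). MpGCAM1, a regulator of gemma formation, had 2.75 to 3.66 CPM and 0.0959 to 0.351 CPM in Mpcsd-2, 2.23 to 3.34 CPM and 0.559 to 0.972 CPM in Mperf20-21, and 4.10 to 6.53 CPM and 0.442 to 1.25 CPM in Mphd9-14, in the control-condition set and the starvation set in that order. The sum of both gemma genes, MpGCAM1 and MpKAR, overlapped between the sets in each mutant. In the same order of sets it was 17.9 to 20.4 CPM and 17.5 to 23.8 CPM in Mpcsd-2. That sum was 20.0 to 23.1 CPM and 14.0 to 21.8 CPM in Mperf20-21, and 17.7 to 22.6 CPM and 15.9 to 17.9 CPM in Mphd9-14. The part of set and cell type in the difference was not tested.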

How the results depend on the processing

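The calls for MpNPF31 in sucrose-starved mutants, and in Mpcsd-2 against Tak-1, held under every other scaling, filter, tool and choice of groups tried, and the direction of each Tak-1 starved group against the control held without any 1 library. Other settings moved these calls: nitrate at 24 h against 6 h was called with total counts (-0.43, adjusted p = 0.029) and with only the groups compared (-0.38, adjusted p = 0.04). Sucrose at 72 h against 6 h was not called with total counts (0.28, adjusted p = 0.101) or with only the groups compared (0.38, adjusted p = 0.087). Sucrose against nitrate at 24 h was not called with total counts (0.36, adjusted p = 0.0739) or no filter (0.36, adjusted p = 0.0885). Sucrose against nitrate starvation in Mpcsd-2 was not called with only the groups compared (-1.18, adjusted p = 0.262). The NPF genes lower in sucrose-starved Mperf20-21 numbered 8 with total counts against 5, and the Mpcsd-2 level in the control-condition set was 2.78 CPM with total counts. Of the 5 genes most alike by Pearson's r, 1 was among the top 5 by Spearman's rho.

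Same-numbered replicates did not deviate together, with 0 of 63 contrasts having every pair's correlation above 0.1, so the numbers do not pair the samples. With a replicate block, sucrose against nitrate at 24 h was 0.39 (adjusted p = 0.0525), and no other call for MpNPF31 changed.

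Leaving out 1 library gave these ranges of the log2 fold change where a call or a sign changed. At 72 h of resupply against the control it was -0.047 to 0.19 for phosphate and -0.0079 to 0.23 for sucrose. Between times it was -0.46 to -0.29 for nitrate at 24 h against 6 h, -0.16 to 0.0071 for phosphate at 24 h against 6 h, 0.12 to 0.44 for sucrose at 24 h against 6 h and 0.28 to 0.55 for sucrose at 72 h against 6 h. Sucrose against nitrate gave -0.43 to -0.16 at 6 h and 0.24 to 0.43 at 24 h, and sucrose against phosphate gave -0.035 to 0.086 at 72 h. Mperf20-21 against Mphd9-14 gave 0.44 to 0.77 in the control-condition set and -0.16 to 0.10 in the starvation set. Against full medium, Mpcsd-2 gave -1.0 to -0.21 with little nitrate and -0.41 to 0.048 with little phosphate, and sucrose-starved Mperf20-21 gave -1.65 to -1.22. Sucrose against nitrate starvation gave -1.45 to -0.66 in Mpcsd-2, -1.47 to -1.04 in Mperf20-21 and -1.21 to -0.79 in Mphd9-14, and sucrose against phosphate starvation -1.35 to -0.92 in Mperf20-21 and -1.23 to -0.82 in Mphd9-14. Nitrate against phosphate starvation gave -0.76 to 0.028 in Mpcsd-2, -0.0084 to 0.20 in Mperf20-21 and -0.15 to 0.16 in Mphd9-14. Differences of response gave -0.51 to 0.28 for nitrate (Mpcsd-2 minus Mphd9-14), -0.11 to 0.35 for phosphate (Mpcsd-2 minus Mperf20-21), and for sucrose -0.45 to 0.038 (Mpcsd-2 minus Mperf20-21), -0.38 to 0.12 (Mpcsd-2 minus Mphd9-14) and -0.16 to 0.28 (Mperf20-21 minus Mphd9-14). The joint fit for Mpcsd-2 against Mperf20-21 gave -1.41 to -0.95. The cause of these changes was not tested.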

Other observations

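Among the 22 measured NPF genes of the mutant starvation set, none was called lower in any mutant with little nitrate or little phosphate, and only a few were called higher. Over all genes no more than 1.34% were called lower and 1.05% to 6.35% higher in these 6 comparisons, so a count of 0 lower is near the background. In phosphate-starved Mpcsd-2 these were MpNPF33 (1.05 ± 0.30), MpNPF34 (1.40 ± 0.45) and MpNPF35 (0.34 ± 0.10). In Mperf20-21 they were MpNPF23 and MpNPF34, by 0.63 ± 0.17 and 1.78 ± 0.39 with little nitrate and by 0.65 ± 0.17 and 1.88 ± 0.39 with little phosphate. In Mphd9-14 there was no call in either direction for either nutrient.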
